A study of Mus musculus with 20 samples.

Results

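Bleomycin, a chemotherapy drug that breaks DNA strands and injures the lung, was compared with sham treatment in the lungs of male Sprague Dawley rats. The animals were 5 males given bleomycin as a model of acute lung injury and 5 sham males of the same weight-matched cohort, and each library held the lung RNA of 1 animal. The 10 libraries are the males of the 20 in the series, chosen by the sex and treatment the labels give, and the other 10 were not used here. The organism field of the labels reads Mus musculus, while the strain, the genome named for alignment and the ENSRNOG gene identifiers of the table are those of rat. The labels give no dose, route or time after bleomycin and no age, so none is attached to any value, and they name no genetic change in any group. The deposited table lists 23799 genes, of which 15275 reached an FPKM of 0.5 in at least 5 of the 10 male libraries and were tested. FPKM, the unit of level here, scales fragments by transcript length and library size.

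The gas-exchange surface of the lung is built of thin alveolar type 1 cells and of type 2 cells that make surfactant, laid against a dense net of capillaries. Club and ciliated cells line the airways, and club cells carry most of the lung's cytochrome P450 enzymes. After injury, monocytes enter from the blood and become macrophages, fibroblasts lay down matrix and surviving cells divide to refill the tissue. The enzyme bleomycin hydrolase inactivates bleomycin, and lung is known for having little of it.

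The libraries held between 68.6 M and 85.3 M counts each. The deposited counts rise in steps of about 4 per read pair, which was seen in the excess of values at 4: over the 10 libraries, 3670 values were exactly 4, against 1742 at 3 and 1265 at 5. All libraries had the defining transcripts of lung, with surfactant protein C (Sftpc) between 922 and 7818 FPKM and the club cell secretoglobin Scgb1a1 between 2335 and 39152 FPKM. The Y-linked genes Kdm5d and Eif2s3y were present in every library, at 3.78 to 8.95 and 11.7 to 21.4 FPKM. Reads of the mitochondrial genome took 4.42 to 7.63% of counts in sham males. They took 8.10, 9.56 and 9.35% in bleomycin males 1, 2 and 5 and 5.70 and 5.43% in bleomycin males 3 and 4. Bleomycin and sham males parted along principal component 1 (41.5% of variance), and component 2 (14.9%) set bleomycin males 3 and 4 apart from bleomycin males 1, 2 and 5.

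Bleomycin lung differed from sham lung in a broad share of the transcriptome. In edgeR's quasi-likelihood test with Benjamini-Hochberg adjustment over all 15275 genes, 2392 genes rose and 2036 fell at an adjusted p under 0.05, which is 15.7% and 13.3% of those tested. Of these, 1042 were at least 2-fold higher and 682 at least 2-fold lower, or 6.82% and 4.46% of genes. The 15.7% that rose and the 13.3% that fell are the background for every gene list count below. Here "rose" and "fell" mean an adjusted p under 0.05, and each log2 fold change of bleomycin over sham is given with its standard error (±) from 5 animals against 5 or with its 95% interval. A ± after a mean FPKM is the SD over the animals of a group (SD, n = 5). The large changes leaned upward: 259 genes rose over 4-fold against 86 that fell over 4-fold, and 76 against 12 passed 8-fold. The median over all tested genes was 0.04 on the log2 scale. In 1963 genes (12.9%) every bleomycin male lay above every sham male, and in 1567 genes (10.3%) every bleomycin male lay below. Of the tested genes, 79 had no sham male at the FPKM minimum and 21 had no bleomycin male at it, so these entered the test through 1 group only. In whole tissue, fewer cells of a type and less RNA per cell cannot be told apart, and this holds for every cell type named here.

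**Figure D1:**
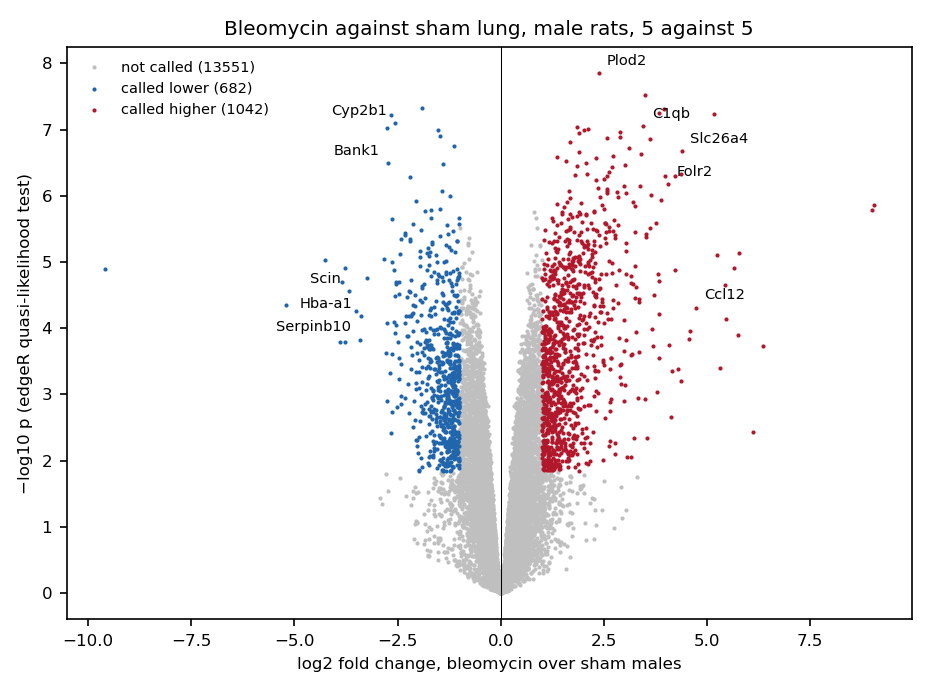
Log2 fold change of bleomycin over sham males (x axis) against −log10 of the edgeR p-value (y axis) for the 15275 tested genes; coloured points are the 1042 genes called at least 2-fold higher and the 682 called at least 2-fold lower. More genes lie far to the right than far to the left, with 76 genes over 8-fold higher and 12 over 8-fold lower.

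Among the transcripts that lost most in absolute level were those of airway and alveolar epithelium and of red cells. Scgb1a1 was at 18407, 39152, 33999, 37759 and 36591 FPKM in sham males 1 to 5 and at 2335, 8030.4, 15414, 11642 and 8182 FPKM in bleomycin males 1 to 5. Sham male 1 was the lowest of its group by far, yet every bleomycin male lay below it (log2 fold change −1.87 ± 0.456, adjusted p = 0.0116). Sftpc was at 7071, 6042, 7818, 7324 and 7270.0 FPKM in sham males 1 to 5 and at 3239, 922, 3564, 5486 and 2667 FPKM in bleomycin males 1 to 5. The bleomycin males again all lay below the sham males, but male 2 was at the bottom and male 4 close to the sham range (log2 fold change −1.17 ± 0.3905, adjusted p = 0.0436). Gsn was at 1103, 1264, 1573, 1089.8 and 1267 FPKM in sham males 1 to 5 and at 291, 629, 638, 275 and 597 FPKM in bleomycin males 1 to 5. Gelsolin (Gsn), which severs actin filaments, thus fell in all 5 (log2 fold change −1.41 ± 0.279, adjusted p = 0.00443). Ager was at 1201, 831, 1082, 1075 and 1176 FPKM in sham males 1 to 5 and at 424, 90.98, 475, 579 and 174 FPKM in bleomycin males 1 to 5. This gene, Ager, encodes the receptor for advanced glycation end products, a hallmark of type 1 cells (log2 fold change −1.62 ± 0.451, adjusted p = 0.0209). Sftpc did not pass without bleomycin male 1, 3 or 5 or any single sham male (adjusted p 0.0564 to 0.0834). Neither Sftpc nor Ager passed in edgeR without both sham male 1 and bleomycin male 1 (adjusted p 0.113 and 0.0655). That pair was chosen after seeing the data.

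Among the transcripts that gained most in absolute level were secreted products of macrophages, epithelium and mesenchyme. Retnla was at 72.6, 143, 58.2, 83.2 and 46.5 FPKM in sham males 1 to 5 and at 1039, 669, 1645, 1788 and 1234 FPKM in bleomycin males 1 to 5. Retnla, a resistin-like secreted protein linked to type 2 immunity, rose with no overlap between groups (log2 fold change 3.98 ± 0.388, adjusted p = 0.000180). Apoe was at 153, 131, 94.7, 124 and 176 FPKM in sham males 1 to 5 and at 1302, 1499, 2189.6, 267 and 1152 FPKM in bleomycin males 1 to 5. Apoe, the lipid carrier made by macrophages, rose in all 5 and least in male 4 (log2 fold change 3.21 ± 0.459, adjusted p = 0.000879). Mgp was at 377, 402, 333, 393 and 354 FPKM in sham males 1 to 5 and at 902, 968, 2048, 704 and 909.7 FPKM in bleomycin males 1 to 5. Matrix Gla protein (Mgp), an inhibitor of calcification, was highest in male 3 (log2 fold change 1.56 ± 0.293, adjusted p = 0.00338). Chia, an acidic chitinase, went from 189 ± 68.9 to 905 ± 562 FPKM and the elastin gene Eln from 365 ± 132 to 1083 ± 612 FPKM, and single animals overlapped the sham range, bleomycin male 1 for Chia and males 2 and 5 for Eln (Chia log2 fold change 2.25 ± 0.514, adjusted p = 0.00864; Eln log2 fold change 1.56 ± 0.453, adjusted p = 0.0256). Bgn, the proteoglycan biglycan, rose from 228 ± 41.3 to 633 ± 198 FPKM (log2 fold change 1.45 ± 0.262, adjusted p = 0.00281), and Ctsb, a lysosomal protease, from 428 ± 21.4 to 907 ± 259 FPKM (log2 fold change 1.06 ± 0.214, adjusted p = 0.00476). Eln did not pass without bleomycin male 4 or sham male 1, 2 or 3 (adjusted p 0.0508 to 0.0577).

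Among the largest rises in ratio were genes that were low in sham lung. Slc26a4 was at 1.03, 1.21, 0.813, 0.837 and 0.5202 FPKM in sham males 1 to 5 and at 27.4, 8.93, 15.5, 29.6 and 11.9 FPKM in bleomycin males 1 to 5. Slc26a4, the anion exchanger pendrin, was above 8 FPKM in all bleomycin males (log2 fold change 4.39 ± 0.393, adjusted p = 0.000135). Folr2 was at 3.17, 2.47, 2.67, 1.74 and 3.42 FPKM in sham males 1 to 5 and at 31.4, 57.1, 81.7, 18.2 and 39.1 FPKM in bleomycin males 1 to 5. This folate receptor of tissue macrophages rose in all 5 and least in male 4 (log2 fold change 4.06 ± 0.406, adjusted p = 0.000218). The monocyte attractant Ccl12 rose from 0.3596 ± 0.2601 to 10.3 ± 5.63 FPKM (log2 fold change 4.73 ± 0.742, adjusted p = 0.00139), and the secreted phosphoprotein Spp1, also called osteopontin, from 16.9 ± 28.3 to 304 ± 210.2 FPKM (log2 fold change 4.14 ± 1.05, adjusted p = 0.0138). One sham male, number 4, had 67.3 FPKM of Spp1 while the other 4 had 2.44 to 8.83. Among the steepest falls were those of Scin, an actin-severing protein of the gelsolin family, and Serpinb10, a protease inhibitor. Scin was at 9.99, 40.96, 32.5, 44.2 and 31.5 FPKM in sham males 1 to 5 and at 1.14, 1.2998, 2.099, 2.48 and 6.06 FPKM in bleomycin males 1 to 5. Serpinb10 was at 20.4, 15.3, 19.98, 19.8 and 16.7 FPKM in sham males 1 to 5 and at 0.395, 1.01, 1.25, 0.7797 and 5.56 FPKM in bleomycin males 1 to 5. Both fell in all 5 bleomycin males, with male 5 the highest of them in each gene (Scin log2 fold change −3.66 ± 0.539, adjusted p = 0.00102; Serpinb10 log2 fold change −3.42 ± 0.609, adjusted p = 0.00269). The sodium-glucose cotransporter Slc5a1 fell from 7.93 ± 3.45 to 0.846 ± 0.519 FPKM (log2 fold change −3.24 ± 0.453, adjusted p = 0.000803). Without sham male 4, Spp1 stood at a log2 fold change of 6.16. Without bleomycin male 5, Serpinb10 stood at a log2 fold change of −4.41.

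Many genes of airway secretory cells and of xenobiotic metabolism fell. Of 18 club and secretory genes tested, 8 fell and none rose, with a median of −1.63; of 27 cytochrome P450 and other xenobiotic genes, 17 fell and 1 rose, with a median of −1.25. Cyp2b1 was at 556, 526, 639.7, 513 and 468 FPKM in sham males 1 to 5 and at 91.7, 59.3, 101, 88.98 and 129 FPKM in bleomycin males 1 to 5. Cyp2b1 is a cytochrome P450 of the club cell, and its 2 groups were far apart, with the highest bleomycin male at 129 and the lowest sham male at 468 FPKM (log2 fold change −2.55 ± 0.208, adjusted p = 0.000106). Ces1d was at 104, 128, 141, 138 and 131 FPKM in sham males 1 to 5 and at 14.3, 17.5, 23.1, 23.5 and 26.3 FPKM in bleomycin males 1 to 5. Ces1d is a carboxylesterase that cleaves ester drugs and lipids (log2 fold change −2.65 ± 0.2098, adjusted p = 0.000106). It also stands in the resident fibroblast and lipofibroblast list and in none of the epithelial lists. Fmo1 was at 74.8, 57.3, 53.7, 51.4 and 39.2 FPKM in sham males 1 to 5 and at 17.97, 17.7, 12.04, 12.6 and 15.1 FPKM in bleomycin males 1 to 5. Fmo1, a flavin monooxygenase, had the smallest standard error of the secretory and xenobiotic genes given in this paragraph (log2 fold change −1.91 ± 0.148, adjusted p = 0.000106). Its sham males nonetheless ranged from 39.2 to 74.8 FPKM. Cyp4b1 fell from 279 ± 58.2 to 69.1 ± 17.5 FPKM (log2 fold change −2.06 ± 0.218, adjusted p = 0.000283), and Aldh1a1, which oxidises retinal, from 230.4 ± 66.1 to 53.1 ± 23.3 FPKM (log2 fold change −2.17 ± 0.397, adjusted p = 0.00307). Cyp2f4 varied most, at 3.70 FPKM in bleomycin male 1 and 157 in male 5, which overlapped the lowest sham male (log2 fold change −2.67 ± 0.734, adjusted p = 0.02003). Cyp2b1 and Cyp2b2 are close paralogs, and reads could be shared between them. The 2 lists overlap, since Cyp2b1, Cyp2f4, Cyp4b1 and Aldh1a1 are among the genes that stand in both. Without bleomycin male 5, Cyp2f4 stood at a log2 fold change of −3.29.

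Ciliated cells, the other main lining of the airways, gave no gene past the test: 0 of 16 rose or fell in edgeR, 1 had an unadjusted p under 0.05, DESeq2 called 0 and limma-voom 0, and the median was −0.47. Within each group, both airway lists were lowest in the same library. Against the sham mean, the median of the ciliated list was −0.84 in sham male 1 and −1.78 in bleomycin male 1, and between −0.85 and 0.30 in the other 8. In bleomycin males 2 and 5, where the ciliated list stood at 0.11 and −0.08, the club list stood at −1.52 and −0.97. With sham male 1 and bleomycin male 1 both left out, a choice made after seeing the data, 11 club genes and 18 xenobiotic genes fell. Under the same choice, 41 of the 184 named genes past the threshold no longer passed it. Basal cell genes were low and uneven, with Krt5 between 0 and 14.1 FPKM and 4 genes tested, none past the test and 0 at an unadjusted p under 0.05.

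Many type 1 cell markers fell, and fewer type 2 cell genes did. Of 15 type 1 markers, 8 fell and none rose (median −1.19), and of 16 type 2 and surfactant genes, 4 fell and 1 rose (median −0.41). Cav1 was at 448, 320.01, 405, 342 and 377 FPKM in sham males 1 to 5 and at 156, 118, 95.98, 199.5 and 121 FPKM in bleomycin males 1 to 5. Caveolin 1 (Cav1), which coats the membrane pits of type 1 cells and of endothelium, fell in all 5 animals, least in male 4 (log2 fold change −1.48 ± 0.206, adjusted p = 0.000772). Clic5 was at 335, 206, 257, 213 and 236 FPKM in sham males 1 to 5 and at 89.1, 40.8, 42.1, 123.2 and 65.3 FPKM in bleomycin males 1 to 5. Clic5, an intracellular chloride channel protein, fell likewise (log2 fold change −1.82 ± 0.313, adjusted p = 0.00228). The water channel gene Aqp5 fell from 224 ± 29.6 to 86.2 ± 42.7 FPKM (log2 fold change −1.39 ± 0.347, adjusted p = 0.0132). Among type 2 genes, the transcription factor gene Etv5 fell from 25.2 ± 6.48 to 10.7 ± 2.42 FPKM (log2 fold change −1.27 ± 0.201, adjusted p = 0.00146), and the phosphate transporter Slc34a2 from 185 ± 28.5 to 81.1 ± 43.4 FPKM (log2 fold change −1.20 ± 0.377, adjusted p = 0.0344). The surfactant genes Sftpb, Sftpa1 and Sftpd had log2 fold changes of −0.68 ± 0.347, −0.38 ± 0.2899 and −0.14 ± 0.296 and did not pass. The 4 surfactant protein genes together took 2.49% ± 0.237 of counts in sham and 1.49% ± 0.655 in bleomycin males (SD, n = 5; exact permutation test, 2-sided p = 0.0238, adjusted over 7 classes 0.0417). Slc34a2 did not pass without bleomycin male 1, 3 or 5 or sham male 1, 3, 4 or 5 (adjusted p 0.0565 to 0.0719). Alveolar type 2 cell and surfactant genes that fell numbered 1 without bleomycin male 1 and 7 without bleomycin male 4.

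Part of the genes of the transitional epithelial state, which type 2 cells pass through on their way to type 1 cells, rose: 8 of 16 rose and none fell (median 0.60). Areg was at 1.18, 1.86, 3.11, 2.58 and 4.07 FPKM in sham males 1 to 5 and at 17.4, 9.26, 35.4, 29.3 and 11.03 FPKM in bleomycin males 1 to 5. Amphiregulin (Areg), a ligand of the EGF receptor, was above every sham male in all 5 (log2 fold change 2.99 ± 0.491, adjusted p = 0.00177). Sfn was at 1.204, 2.14, 1.29, 1.78 and 1.75 FPKM in sham males 1 to 5 and at 6.64, 6.93, 17.7, 14.9 and 6.77 FPKM in bleomycin males 1 to 5. Stratifin (Sfn), a stress-responsive adaptor protein of epithelium, followed (log2 fold change 2.70 ± 0.3704, adjusted p = 0.000743). The urokinase receptor Plaur and the TWEAK receptor Tnfrsf12a rose too (Plaur log2 fold change 1.81 ± 0.277, adjusted p = 0.00123; Tnfrsf12a log2 fold change 2.10 ± 0.358, adjusted p = 0.00218). The keratin genes of that state gave no call: Krt8 had a log2 fold change of 0.21 ± 0.281 and Krt7 of 0.59 ± 0.461, and neither passed. Of 21 tight junction and fluid transport genes, 7 fell and none rose. Those that fell included the junction strand proteins Cldn1 (log2 fold change −1.73 ± 0.359, adjusted p = 0.00553) and Ocln (log2 fold change −0.71 ± 0.171, adjusted p = 0.0112) and the scaffolds Tjp1 (log2 fold change −0.99 ± 0.223, adjusted p = 0.00823) and Cgn (log2 fold change −0.75 ± 0.158, adjusted p = 0.00599), while Cldn4, counted in the transitional list, rose (log2 fold change 1.22 ± 0.2905, adjusted p = 0.0105). The sodium pump gene Atp1b1 had a log2 fold change of 0.28 ± 0.271 and did not pass. Transitional epithelial genes that rose numbered 5 without sham male 2 and 8 without bleomycin male 4. Tight junction and fluid transport genes that fell numbered 6 without bleomycin male 1 and 11 without bleomycin male 4.

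**Figure D2:**
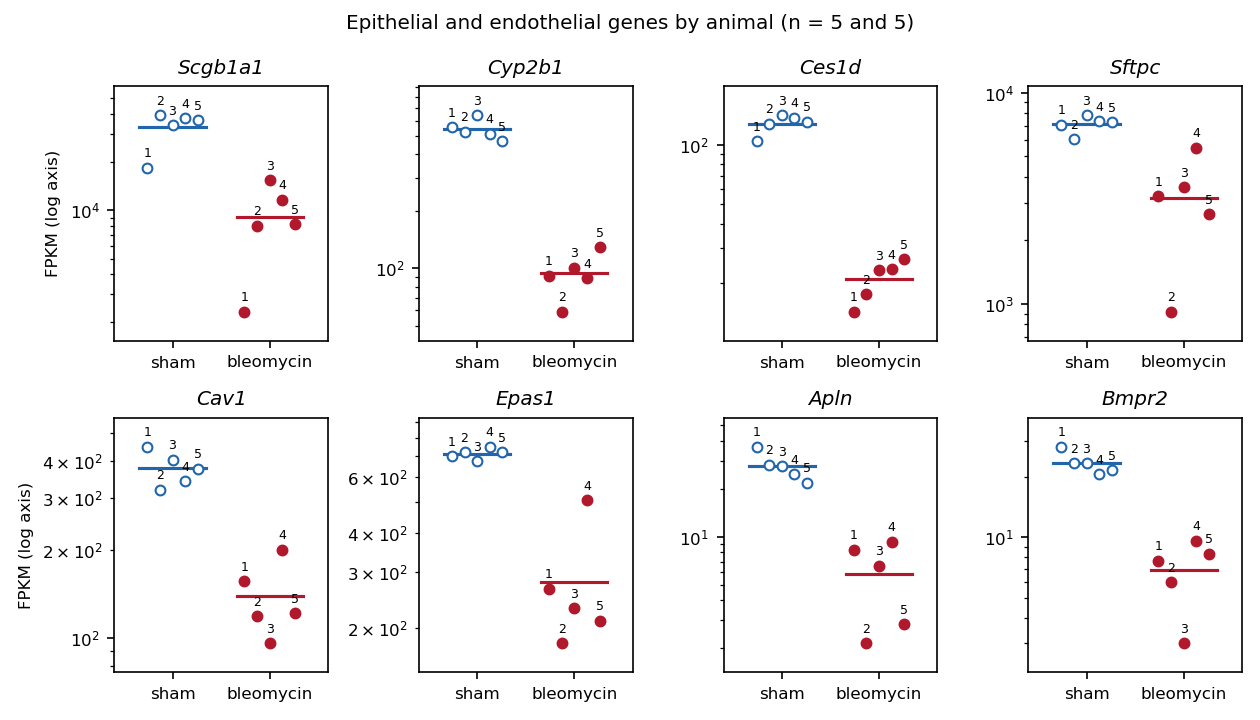
FPKM (log axis) of 8 genes in each of the 5 sham (open) and 5 bleomycin (filled) males, numbered by animal, with the group mean as a bar. Most are genes of epithelium or endothelium, while Ces1d stands in the xenobiotic and resident fibroblast lists. All 5 bleomycin males lay below all 5 sham males in each panel, and male 4 was the highest of the bleomycin males for Sftpc, Cav1, Epas1, Apln and Bmpr2.

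Many capillary genes fell, while a pair of adhesion molecules of activated vessels rose. Of 22 capillary endothelial genes, 11 fell and none rose (median −1.04). Epas1 was at 697, 719.8, 675, 748 and 719.97 FPKM in sham males 1 to 5 and at 266, 179, 230.5, 506 and 211 FPKM in bleomycin males 1 to 5. Epas1, the hypoxia-inducible factor HIF-2 alpha that lung endothelium expresses strongly, was narrow in sham males and wide after bleomycin (log2 fold change −1.37 ± 0.286, adjusted p = 0.005597). Apln was at 36.6, 28.4, 27.7, 24.6 and 21.8 FPKM in sham males 1 to 5 and at 8.31, 2.16, 6.59, 9.34 and 2.84 FPKM in bleomycin males 1 to 5. The peptide apelin (Apln), a marker of one capillary cell class, fell most of the list (log2 fold change −2.25 ± 0.395, adjusted p = 0.00247), and the phosphatase Ptprb fell from 37.8 ± 3.098 to 13.4 ± 4.43 FPKM (log2 fold change −1.53 ± 0.2105, adjusted p = 0.000751). Of 19 genes of larger or activated vessels, 6 fell and 2 rose. The 2 that rose were the leukocyte adhesion molecules Vcam1 (log2 fold change 0.82 ± 0.108, adjusted p = 0.000631) and Sele (log2 fold change 2.02 ± 0.366, adjusted p = 0.00289). Vcam1 was at 17.3, 16.5, 11.8, 13.6 and 12.3 FPKM in sham males 1 to 5 and at 25.3, 29.7, 24.2, 23.2 and 26.7 FPKM in bleomycin males 1 to 5. The 5 bleomycin males lay close together, all above the highest sham male.

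In the Notch list, 5 of 16 genes fell and 1 rose. The arterial ligand Dll4 fell from 17.7 ± 7.62 to 4.68 ± 2.26 FPKM (log2 fold change −1.92 ± 0.35999, adjusted p = 0.00344) and its target Hey1 from 17.02 ± 4.11 to 6.94 ± 2.84 FPKM (log2 fold change −1.33 ± 0.279, adjusted p = 0.00583). Of 6 lymphatic genes tested, 3 rose and 1 fell. Ccl21 was at 52.1, 39.6, 31.6, 44.5 and 34.6 FPKM in sham males 1 to 5 and at 185, 159, 379, 88.03 and 166 FPKM in bleomycin males 1 to 5. Ccl21, the chemokine with which lymphatic vessels draw in dendritic cells, rose in all 5 (log2 fold change 2.27 ± 0.351, adjusted p = 0.00132). The extracellular proteins Mmrn1 and Reln rose as well (Mmrn1 log2 fold change 1.48 ± 0.164, adjusted p = 0.000334; Reln log2 fold change 2.27 ± 0.24998, adjusted p = 0.000332). The hyaluronan receptor gene Lyve1, expressed by lymphatic vessels and by some macrophages, fell from 41.6 ± 9.397 to 17.2 ± 5.87 FPKM (log2 fold change −1.31 ± 0.254, adjusted p = 0.00408). Notch receptors, ligands and targets that fell numbered 2 without sham male 2 and 6 without bleomycin male 1.

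BMP genes changed in both directions. BMPs are ligands of the TGF-beta family that signal through paired receptors to the SMAD1, SMAD5 and SMAD9 proteins, and secreted antagonists hold the ligands back. Of 24 genes tested, 7 rose and 8 fell, with a median of −0.20. Bmpr2 was at 28.1, 23.2, 23.3, 20.5 and 21.5 FPKM in sham males 1 to 5 and at 7.66, 6.01, 2.999, 9.64 and 8.29 FPKM in bleomycin males 1 to 5. This receptor, whose gene is mutated in heritable pulmonary arterial hypertension in humans, fell in all 5, with male 3 lowest (log2 fold change −1.80 ± 0.244, adjusted p = 0.000716). The ligands Bmp3 and Bmp6 fell from 11.5 ± 3.76 to 2.91 ± 1.42 FPKM and from 50.8 ± 7.61 to 19.9 ± 6.15 FPKM (Bmp3 log2 fold change −2.02 ± 0.334, adjusted p = 0.00182; Bmp6 log2 fold change −1.37 ± 0.225, adjusted p = 0.00172), the receptors Bmpr1a and Bmpr1b by 1.05 ± 0.205 and 1.93 ± 0.461, and Smad9 by 1.56 ± 0.201 on the log2 scale. The antagonists Grem1 (log2 fold change 3.36 ± 0.6303, adjusted p = 0.00345), Chrd (log2 fold change 1.58 ± 0.393, adjusted p = 0.01297), Nog (log2 fold change 1.42 ± 0.426, adjusted p = 0.0294) and Fst (log2 fold change 1.01 ± 0.321, adjusted p = 0.0363) were among those that rose. Grem1 was at 0.02098, 0.109, 0.234, 0.0171 and 0.0754 FPKM in sham males 1 to 5 and at 0.882, 1.44, 0.823, 1.07 and 0.684 FPKM in bleomycin males 1 to 5. Grem1 was thus near 0 in sham lung and low in bleomycin lung, and it entered the test through the bleomycin males only. The target genes Id1, Id2 and Id3 had log2 fold changes of 0.051 ± 0.247, 0.44 ± 0.116 and 0.79 ± 0.266, and the last 2 rose. Nog did not pass without bleomycin male 4 or sham male 3 or 4 (adjusted p 0.0526 to 0.06195). Fst did not pass without bleomycin male 1, 2 or 4 or sham male 3, 4 or 5 (adjusted p 0.0558 to 0.0849). Id3 did not pass without bleomycin male 1, 2 or 3 or sham male 2, 3, 4 or 5 (adjusted p 0.0788 to 0.1004). Without sham male 3, Grem1 stood at a log2 fold change of 4.09. BMP ligands, inhibitors and targets that rose numbered 4 without sham male 3 and 8 without bleomycin male 5.

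Of 23 TGF-beta genes tested, 7 rose and 5 fell (median 0.047). The genes that rose included the ligands Tgfb1 and Tgfb3, the latent binding proteins Ltbp2 and Ltbp3, and the targets Tgfbi and Ccn2. Tgfbi was at 9.08, 9.52, 8.84, 10.1 and 9.65 FPKM in sham males 1 to 5 and at 32.2, 36.2, 47.5, 17.7 and 28.8 FPKM in bleomycin males 1 to 5. Tgfbi, a secreted adhesion protein, rose from 9.43 ± 0.484 to 32.5 ± 10.9 FPKM (log2 fold change 1.75 ± 0.228, adjusted p = 0.000618). The co-receptor Tgfbr3 fell from 25.7 ± 2.55 to 9.22 ± 3.04 FPKM (log2 fold change −1.54 ± 0.203, adjusted p = 0.000649), and Smad3, Smad6, Eng and Acvrl1 fell by 0.59 ± 0.1302, 1.55 ± 0.265, 0.83 ± 0.273 and 0.76 ± 0.188. The type 1 receptor gene Tgfbr1, at 0.39 ± 0.151, did not pass. Eng did not pass without bleomycin male 1, 2, 3 or 5 or any single sham male (adjusted p 0.0582 to 0.0876). Tgfbr1 passed without bleomycin male 3 (log2 fold change 0.50, adjusted p 0.0133). Tgfb1 did not pass without bleomycin male 1 or sham male 1, 2, 3 or 5 (adjusted p 0.0515 to 0.0624). Ccn2 did not pass without sham male 1, 2, 3 or 4 (adjusted p 0.0536 to 0.0575).

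**Figure D3:**
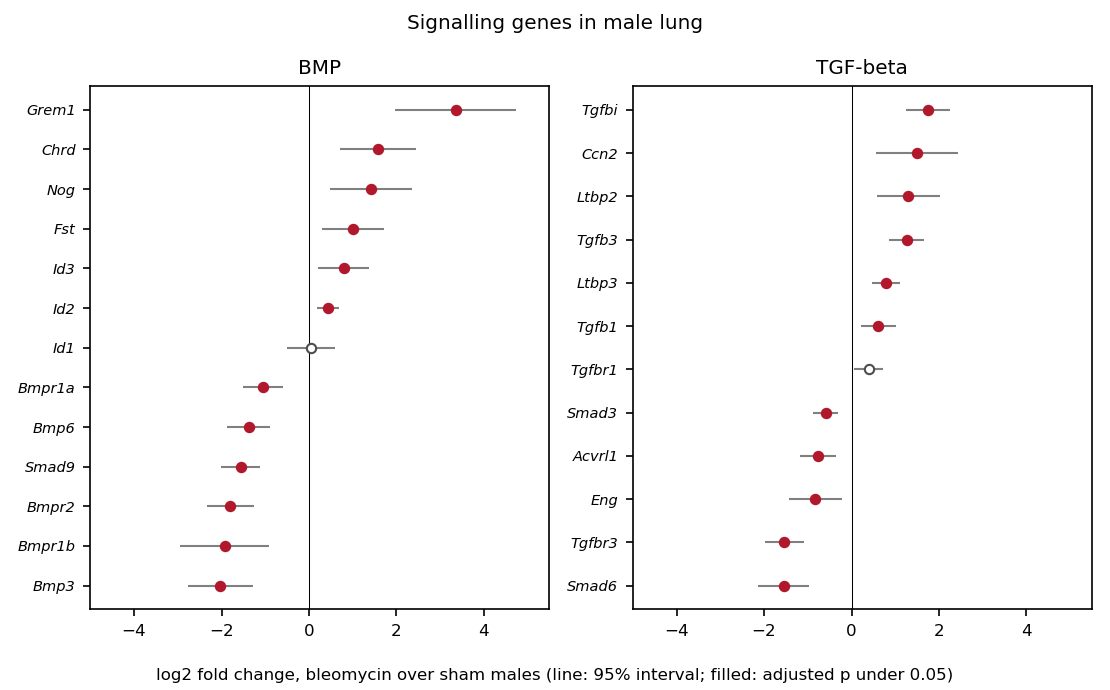
Log2 fold change of bleomycin over sham males with its 95% interval for the genes of the BMP and TGF-beta lists that the text names, ordered by value within a list; filled points passed an adjusted p under 0.05. In the BMP panel the receptors Bmpr1a, Bmpr1b and Bmpr2 are at the lower end and the antagonists Fst, Nog, Chrd and Grem1 at the upper end.

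Interstitial matrix genes rose as a group and basement membrane genes did not. Of 35 matrix genes 26 rose and none fell (median 1.36), against 3 up and 2 down of 21 basement membrane genes (median 0.064). Plod2 was at 6.89, 6.22, 4.83, 5.94 and 5.98 FPKM in sham males 1 to 5 and at 35.9, 28.1, 35.2, 34.5 and 23.6 FPKM in bleomycin males 1 to 5. The lysyl hydroxylase Plod2, which prepares collagen for cross-linking, had tight values in both groups (log2 fold change 2.37 ± 0.164, adjusted p = 0.000106). Versican (Vcan), a large proteoglycan, rose from 1.702 ± 0.229 to 5.59 ± 0.868 FPKM (log2 fold change 1.69 ± 0.146, adjusted p = 0.000112). In the basement membrane list, the laminin chain Lama5 rose (log2 fold change 0.78 ± 0.194, adjusted p = 0.0131), and the laminin chain Lamc3 fell (log2 fold change −0.97 ± 0.163, adjusted p = 0.001899). Myofibroblast and smooth muscle genes rose in 11 of 15 and fell in 1. The actin Actg2 rose from 31.4 ± 9.82 to 131 ± 36.9 FPKM (log2 fold change 2.02 ± 0.291, adjusted p = 0.000901) and the actin-binding Cnn1 from 15.6 ± 4.09 to 48.2 ± 7.095 FPKM (log2 fold change 1.58 ± 0.212, adjusted p = 0.000683). The 1 that fell was Hhip, which binds hedgehog ligands (log2 fold change −2.10 ± 0.489, adjusted p = 0.00957). Without bleomycin male 4, Hhip stood at a log2 fold change of −2.71. Basement membrane genes that rose numbered 1 without bleomycin male 3 and 6 without bleomycin male 2. Basement membrane genes that fell numbered 1 without bleomycin male 1 and 6 without bleomycin male 4.

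As a list, resident fibroblast genes stayed near the middle, with 1 up and 3 down of 19 and a median of −0.0021. The largest fall in the list was that of Ces1d, given above among the xenobiotic genes (log2 fold change −2.65). The fibroblast genes Pdgfra, a growth factor receptor, and Tcf21, a transcription factor, had log2 fold changes of 0.023 ± 0.121 and 0.059 ± 0.187, with 95% intervals of −0.24 to 0.29 and −0.35 to 0.47. The 1 that rose was the microfibril protein Mfap5 (log2 fold change 1.12 ± 0.227, adjusted p = 0.00496). Of the pericyte genes, Pdgfrb was up (log2 fold change 0.64 ± 0.1804, adjusted p = 0.0221) and Rgs5 down (log2 fold change −1.01 ± 0.186, adjusted p = 0.00317), among 3 up and 3 down of 13. Of 6 mesothelial genes 1 rose. This was the transcription factor Wt1, which went from 0.582 ± 0.348 to 4.46 ± 1.76 FPKM (log2 fold change 2.86 ± 0.506, adjusted p = 0.00258), while Msln, the surface antigen of mesothelium, was wide in both groups at 58.7 ± 19.001 to 114 ± 67.5 FPKM and did not pass (log2 fold change 0.90 ± 0.455, adjusted p = 0.158). Of 26 matrix protease genes 12 rose and 3 fell. Mmp12 was at 2.35, 3.33, 1.702, 1.41 and 1.53 FPKM in sham males 1 to 5 and at 16.5, 10.2, 16.02, 20.6 and 21.2 FPKM in bleomycin males 1 to 5. Macrophage elastase (Mmp12) rose in all 5 (log2 fold change 3.01 ± 0.282, adjusted p = 0.000153), as did the collagen-cleaving cathepsin Ctsk, from 3.98 ± 0.978 to 26.6 ± 8.16 FPKM (log2 fold change 2.72 ± 0.247, adjusted p = 0.000140). Pdgfrb did not pass without bleomycin male 1 (adjusted p 0.0519). Msln passed without bleomycin male 4 (log2 fold change 1.14, adjusted p 0.0359). Pericyte genes that rose numbered 0 without bleomycin male 1 and 3 without bleomycin male 2.

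Most genes of recruited and interstitial macrophages rose, with 25 of 30 up and none down (median 1.95). C1qb was at 16.997, 12.1, 17.8, 16.5 and 19.3 FPKM in sham males 1 to 5 and at 175, 241, 267, 93.6 and 157 FPKM in bleomycin males 1 to 5. C1qb, a chain of the complement starter C1q that tissue macrophages make, rose in every animal (log2 fold change 3.46 ± 0.285, adjusted p = 0.000106). Trem2 was at 2.06, 2.61, 3.13, 1.0997 and 1.61 FPKM in sham males 1 to 5 and at 35.4, 38.9, 45.9, 10.4 and 28.5 FPKM in bleomycin males 1 to 5. The lipid receptor Trem2 was lowest in male 4 (log2 fold change 3.88 ± 0.4095, adjusted p = 0.000277). In the other macrophage list, 5 of 13 genes of alveolar macrophages fell and 3 rose. The lipid exporter Abcg1 fell from 51.6 ± 7.79 to 29.1 ± 5.77 FPKM (log2 fold change −0.87 ± 0.162, adjusted p = 0.00338), and the sialic acid receptor Siglec1 rose from 1.34 ± 0.155 to 5.797 ± 1.64 FPKM (log2 fold change 2.06 ± 0.192, adjusted p = 0.000153). Some genes of that list are also expressed by other lung cells, such as Flt1 in endothelium. Fabp4, among those that rose, did not pass without bleomycin male 5, the library with fat transcripts (log2 fold change 0.94, adjusted p 0.105). Alveolar macrophage genes that rose numbered 1 without sham male 2 and 3 without bleomycin male 3.

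Dendritic cell and antigen presentation genes rose in 14 of 21, with none down (median 1.08). Cd86 was at 2.06, 2.67, 2.301, 1.93 and 2.59 FPKM in sham males 1 to 5 and at 8.89, 8.15, 7.41, 4.75 and 7.89 FPKM in bleomycin males 1 to 5. Cd86 and Cd80, the costimulatory ligands of CD28, rose by 1.64 ± 0.185 and 2.24 ± 0.3003 on the log2 scale. The chemokine Ccl22, which draws in regulatory T cells, rose from 0.442 ± 0.412 to 4.39 ± 1.87 FPKM (log2 fold change 3.29 ± 0.566, adjusted p = 0.00228). Male 4 was the lowest bleomycin male for each of these 3 genes. Without sham male 2, Ccl22 stood at a log2 fold change of 4.01.

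Of 26 T and NK cell genes tested, 5 rose and 3 fell (median 0.32), shares near the 15.7% and 13.3% of all tested genes. Foxp3 was at 0.526, 0.384, 0.472, 0.3603 and 0.296 FPKM in sham males 1 to 5 and at 3.12, 1.57, 1.17, 0.833 and 1.002 FPKM in bleomycin males 1 to 5. Foxp3, the master transcription factor of regulatory T cells, was low but higher in all 5 bleomycin males (log2 fold change 1.86 ± 0.347, adjusted p = 0.00332). The inhibitory receptor Ctla4 (log2 fold change 2.76 ± 0.855, adjusted p = 0.0328), the costimulator Icos (log2 fold change 1.24 ± 0.355, adjusted p = 0.0233) and the CD8 chains Cd8a (log2 fold change 1.13 ± 0.328, adjusted p = 0.0251) and Cd8b (log2 fold change 1.55 ± 0.326, adjusted p = 0.00588) rose. Of the killing granule, 3 genes fell: perforin (Prf1) went from 11.3 ± 3.37 to 5.44 ± 3.098 FPKM (log2 fold change −1.12 ± 0.334, adjusted p = 0.0282), Gzma changed by −1.02 ± 0.345 and Gzmb by −1.13 ± 0.361. The T cell receptor chains Cd3d, Cd3e and Cd3g had log2 fold changes of 0.54 ± 0.286, 0.34 ± 0.282 and 0.21 ± 0.284, none past the test. Bleomycin male 4 stood apart, with a list median of −0.996 against the sham mean where the other bleomycin males were between 0.16 and 0.85. Ctla4 did not pass without bleomycin male 1 or 5 or sham male 2, 3 or 5 (adjusted p 0.0512 to 0.0834). Icos did not pass without sham male 3, 4 or 5 (adjusted p 0.0558 to 0.05795). Cd8a did not pass without bleomycin male 2 or sham male 4 (adjusted p 0.0582 to 0.0588). Prf1 did not pass without bleomycin male 3 or 5 or sham male 1 or 5 (adjusted p 0.0561 to 0.0665). Gzma did not pass without bleomycin male 1, 3, 4 or 5 or any single sham male (adjusted p 0.0619 to 0.102). Gzmb did not pass without bleomycin male 3, 4 or 5 or sham male 1, 2, 3 or 5 (adjusted p 0.0544 to 0.0868). Without bleomycin male 1, Ctla4 stood at a log2 fold change of 2.12. Without sham male 1, Ctla4 stood at a log2 fold change of 3.71. T and NK cell genes that rose numbered 3 without sham male 3 and 7 without bleomycin male 4. T and NK cell genes that fell numbered 0 without bleomycin male 3 and 3 without bleomycin male 2.

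Several B cell genes were lower. Of 19 B and plasma cell genes 5 fell and 1 rose (median −0.65). Bank1 was at 5.47, 4.77, 3.76, 4.26 and 2.72 FPKM in sham males 1 to 5 and at 0.8301, 0.946, 0.584, 0.406 and 0.475 FPKM in bleomycin males 1 to 5. Bank1, a scaffold of the B cell receptor, was under 1 FPKM in all bleomycin males and over 2 in all sham males (log2 fold change −2.73 ± 0.255, adjusted p = 0.000153). Spib was at 15.9, 20.9, 9.91, 22.6 and 18.6 FPKM in sham males 1 to 5 and at 4.77, 5.25, 4.36, 3.54 and 2.803 FPKM in bleomycin males 1 to 5. The transcription factor Spib fell alike (log2 fold change −2.13 ± 0.244, adjusted p = 0.000387), and so did Ms4a1, the CD20 antigen (log2 fold change −2.06 ± 0.59001, adjusted p = 0.0239), and Cd79a (log2 fold change −1.49 ± 0.434, adjusted p = 0.0257). The plasma cell gene Mzb1, at 0.49 ± 0.456, did not pass. Ms4a1 did not pass without bleomycin male 1 or sham male 2 (adjusted p 0.0524 to 0.0612). Cd79a did not pass without bleomycin male 2 or sham male 2 or 4 (adjusted p 0.0503 to 0.0629). B and plasma cell genes that fell numbered 3 without sham male 2 and 7 without sham male 3.

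Neutrophil genes gave no common direction, with 4 up and 2 down of 17. The attractants Cxcl1 (1.19 ± 0.321), Cxcl2 (1.72 ± 0.511) and Cxcl6 (3.35 ± 0.507) rose on the log2 scale. Mmp8 was at 4.99, 2.59, 2.25, 4.62 and 4.58 FPKM in sham males 1 to 5 and at 0.515, 0.353, 0.905, 1.36 and 0.294 FPKM in bleomycin males 1 to 5. Neutrophil collagenase (Mmp8) fell in all 5 (log2 fold change −2.46 ± 0.474, adjusted p = 0.00395), while the calprotectin chains S100a8 and S100a9, at −0.49 ± 0.477 and −0.62 ± 0.476, did not pass. In the list of 34 cytokines and chemokines 17 rose and 4 fell. Of the interleukin 6 family, 3 members rose, with Il6 at 4.30 ± 0.868, Lif at 2.31 ± 0.272 and Osm at 1.41 ± 0.313 on the log2 scale. Il1b and Il1a had values of 0.061 ± 0.391 and −0.82 ± 0.489 and did not pass, and Cxcl14 (log2 fold change −1.64 ± 0.281, adjusted p = 0.002201) and Il33 (log2 fold change −0.52 ± 0.177, adjusted p = 0.0468), cytokines of epithelium and stroma, fell. Cxcl2 did not pass without bleomycin male 4 or sham male 4 or 5 (adjusted p 0.0556 to 0.0665). Il1a passed without bleomycin male 4 (log2 fold change −1.51, adjusted p 0.00907). Il33 did not pass without bleomycin male 2, 3 or 5 or any single sham male (adjusted p 0.0545 to 0.105). Without sham male 3, Il6 stood at a log2 fold change of 5.01. Neutrophil genes and their attractants that fell numbered 2 without bleomycin male 1 and 4 without bleomycin male 4. Cytokines and chemokines that fell numbered 2 without sham male 2 and 6 without bleomycin male 4.

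Interferon-stimulated genes, which mark a response to type I interferon, gave no rise: 0 of 26 rose in edgeR and 3 fell (median −0.092), and 2 were higher at an unadjusted p under 0.05. DESeq2 called 0 of them higher and limma-voom 0. The genes that fell were Bst2, Ifih1 and Gbp5, each by less than 2-fold. The chemokine genes Cxcl10 and Cxcl11, often counted with them, rose by 3.15 ± 0.437 and 2.41 ± 0.377. Complement genes rose in 12 of 23 and fell in 2. C1s was at 15.3, 12.05, 17.5, 12.1 and 18.7 FPKM in sham males 1 to 5 and at 49.99, 114, 80.6, 27.6 and 96.5 FPKM in bleomycin males 1 to 5. C1s, a protease of the C1 complex, rose in all 5 (log2 fold change 2.23 ± 0.329, adjusted p = 0.00104), and C4a from 158 ± 88.9 to 607 ± 212 FPKM (log2 fold change 1.90 ± 0.401, adjusted p = 0.00595). C3, the hub of the cascade, had a log2 fold change of −0.20 ± 0.233 with a 95% interval of −0.72 to 0.31. Ifih1 did not pass without bleomycin male 2 or sham male 1 or 5 (adjusted p 0.0515 to 0.0625). Gbp5 did not pass without any single bleomycin male or sham male 1, 2, 4 or 5 (adjusted p 0.0501 to 0.0828). Interferon-stimulated genes that fell numbered 1 without bleomycin male 2 and 3 without sham male 3. Complement genes that fell numbered 0 without bleomycin male 1 and 2 without bleomycin male 3.

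**Figure D4:**
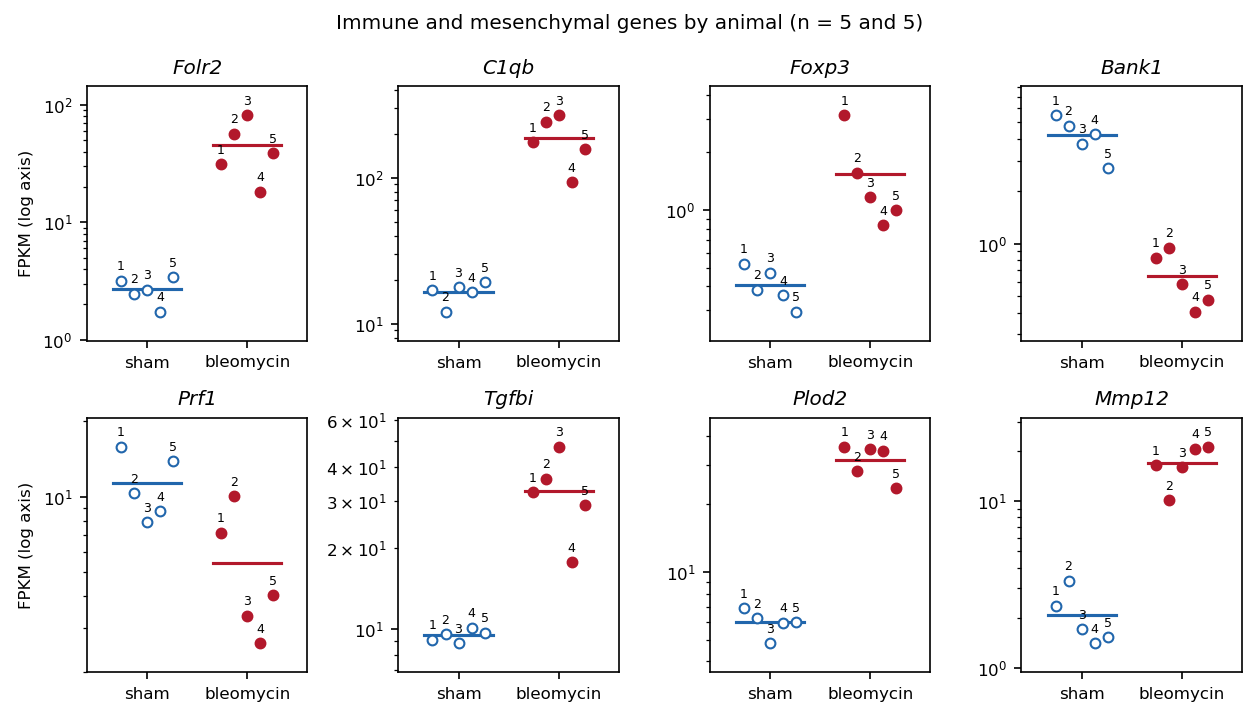
FPKM (log axis) of 8 immune and mesenchymal genes in each of the 5 sham (open) and 5 bleomycin (filled) males, numbered by animal, with the group mean as a bar. Folr2, C1qb, Foxp3, Tgfbi, Plod2 and Mmp12 were higher in all 5 bleomycin males, Bank1 was lower in all 5, and Prf1 overlapped.

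Among 15 red cell and platelet genes 7 fell and none rose. Hba-a1 was at 717, 1113, 1218, 1475 and 905 FPKM in sham males 1 to 5 and at 60.7, 65.2, 248, 101 and 33.3 FPKM in bleomycin males 1 to 5. The alpha globin gene Hba-a1 fell in all 5 (log2 fold change −3.40 ± 0.5501, adjusted p = 0.00161), and the anion exchanger Slc4a1 of the red cell membrane fell with it (log2 fold change −2.13 ± 0.342, adjusted p = 0.00153). Globin genes are near-identical copies, so reads may be split among them. Globins took 0.608% ± 0.160 of counts in sham and 0.0507% ± 0.0418 in bleomycin males (SD, n = 5; exact permutation test, 2-sided p = 0.00794, the smallest 5 against 5 can give; adjusted 0.0278). Coagulation and fibrinolysis genes rose in 8 of 21 and fell in 3. Those that fell are known products of endothelium, namely thrombomodulin (Thbd, −0.85 ± 0.233), Tfpi (−0.76 ± 0.197) and von Willebrand factor (Vwf, −0.68 ± 0.2297). The plasminogen activators Plat (0.59 ± 0.182) and Plau (1.09 ± 0.254), with the receptor Plaur, rose. Vwf did not pass without bleomycin male 1, 2 or 5 or any single sham male (adjusted p 0.0657 to 0.0998). Plat did not pass without bleomycin male 2, 3 or 4 or sham male 1, 2 or 4 (adjusted p 0.0555 to 0.0779). Without bleomycin male 3, Hba-a1 stood at a log2 fold change of −4.11.

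Cell cycle genes rose almost throughout: 34 of 38 DNA replication genes and 45 of 48 mitosis genes, with none down and medians of 1.14 and 1.82. Mybl2 was at 0.804, 0.865, 0.912, 1.26 and 0.829 FPKM in sham males 1 to 5 and at 6.15, 8.03, 5.82, 4.74 and 4.06 FPKM in bleomycin males 1 to 5. The transcription factor Mybl2, which turns on mitotic genes, was above 4 FPKM in all bleomycin males (log2 fold change 2.58 ± 0.2203, adjusted p = 0.000106). Ccne1 was at 0.979, 0.389, 0.251, 0.518 and 0.456 FPKM in sham males 1 to 5 and at 3.67, 3.06, 4.33, 3.67 and 3.31 FPKM in bleomycin males 1 to 5. Cyclin E1 (Ccne1), which starts DNA synthesis, rose most of the replication list (log2 fold change 2.78 ± 0.332, adjusted p = 0.000437). Of 32 p53 target and DNA damage genes 13 rose and 3 fell. Ccng1 was at 33.4, 31.6, 38.4, 28.2 and 32.1 FPKM in sham males 1 to 5 and at 63.3, 61.5, 53.4, 63.3 and 69.1 FPKM in bleomycin males 1 to 5. Cyclin G1 (Ccng1), a p53 target, rose with little spread (log2 fold change 0.88 ± 0.103, adjusted p = 0.000416). The repair gene Fancd2, which dividing cells also express, rose further (log2 fold change 1.72 ± 0.227, adjusted p = 0.000631), and the p53 targets Perp (−1.15 ± 0.157), Rrm2b (−0.78 ± 0.223) and Sesn1 (−0.35 ± 0.113) fell. Cdkn2a, an inhibitor of the cell cycle used as a marker of senescence, rose from 0.21996 ± 0.113 to 1.52 ± 0.475 FPKM (log2 fold change 2.72 ± 0.415, adjusted p = 0.00122). No sham male reached the FPKM minimum for Cdkn2a, so it entered the test through the bleomycin males only. Rrm2b did not pass without sham male 1 (adjusted p 0.0516). Sesn1 did not pass without bleomycin male 2, 3 or 4 or sham male 1, 2, 3 or 5 (adjusted p 0.0571 to 0.142). P53 target and DNA damage genes that fell numbered 1 without sham male 1 and 3 without bleomycin male 1.

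Of 29 growth factor and receptor genes, 6 rose and 10 fell. Those that fell included hepatocyte growth factor (Hgf, −1.43 ± 0.3496) and its receptor Met (−1.19 ± 0.257), the receptors Egfr (−0.81 ± 0.225), Fgfr2 (−0.98 ± 0.265), Fgfr3 (−0.84 ± 0.194) and Fgfr4 (−0.89 ± 0.2303), and Fgf1. Fgf1 was at 19.8, 20.1, 19.1, 19.3 and 18.1 FPKM in sham males 1 to 5 and at 11.8, 12.8, 10.1, 13.96 and 11.9 FPKM in bleomycin males 1 to 5. The Fgf1 values were narrow and did not overlap (log2 fold change −0.71 ± 0.0984, adjusted p = 0.000771). The EGF receptor ligands Areg and Ereg (log2 fold change 1.90 ± 0.655, adjusted p = 0.0494) rose while the receptor fell. Vegfd (log2 fold change 1.82 ± 0.364, adjusted p = 0.00459) and Angptl4 (log2 fold change 2.25 ± 0.426, adjusted p = 0.00361), which act on vessels, rose. In the Wnt list, 4 of 26 rose and 4 fell, close to the shares of all tested genes. Ccn4, a secreted Wnt target also called WISP1, went from 0.162 ± 0.0326 to 1.72 ± 0.697 FPKM (log2 fold change 3.38 ± 0.341, adjusted p = 0.000223), and the receptor Fzd4 fell (log2 fold change −1.28 ± 0.314, adjusted p = 0.0121). Ccn4 entered the test through the bleomycin males only. Of the target genes Axin2 and Lef1, at −0.59 ± 0.273 and −0.18 ± 0.2203, neither passed. Ereg did not pass without bleomycin male 1, 4 or 5 or sham male 1, 2, 3 or 4 (adjusted p 0.0586 to 0.136). Axin2 passed without bleomycin male 1 (log2 fold change −0.85, adjusted p 0.0263). Without bleomycin male 4, Ereg stood at a log2 fold change of 1.03. Wnt ligands, inhibitors and targets that fell numbered 2 without sham male 2 and 6 without bleomycin male 4.

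The metallothionein genes Mt1 and Mt2A, whose proteins bind zinc and other metals, rose. Mt2A was at 3.55, 2.93, 2.704, 3.99 and 5.13 FPKM in sham males 1 to 5 and at 19.99, 33.4, 57.7, 82.4 and 33.8 FPKM in bleomycin males 1 to 5. Mt1 was at 9.86, 10.6, 7.29, 7.72 and 12.2 FPKM in sham males 1 to 5 and at 26.9, 29.6, 66.2, 73.1 and 33.8 FPKM in bleomycin males 1 to 5. In both genes every bleomycin male was above every sham male, with males 3 and 4 highest (Mt2A log2 fold change 3.62 ± 0.422, adjusted p = 0.000410; Mt1 log2 fold change 2.27 ± 0.352, adjusted p = 0.00133). Slc39a14, a zinc and iron importer, rose from 2.71 ± 0.489 to 6.58 ± 0.4596 FPKM with one of the narrowest spreads among bleomycin males of any called gene (log2 fold change 1.24 ± 0.1398, adjusted p = 0.000358). Of the whole list of 21 antioxidant genes and metallothioneins, 4 rose and 3 fell, again near the shares of all tested genes. The NRF2 targets Nqo1 (−0.48 ± 0.168), Gclc (−0.39 ± 0.167) and Txnrd1 (−0.18 ± 0.138) did not pass in edgeR, Gclm (−0.57 ± 0.155) and Gsta1 (−1.13 ± 0.241) fell, and the heme-degrading Hmox1 rose (log2 fold change 1.25 ± 0.323, adjusted p = 0.0152). Endoplasmic reticulum stress genes rose in 3 of 25 and fell in 1, with the chaperone Hspa5 at 0.095 ± 0.209 (95% interval −0.36 to 0.55). Nqo1 passed without bleomycin male 3 or 4 or sham male 1 (log2 fold change −0.59 to −0.53, adjusted p 0.01803 to 0.0484). Gclm did not pass without sham male 2 or 4 (adjusted p 0.0506 to 0.0538). Nqo1 also passed in DESeq2 (adjusted p = 0.0203). NRF2 antioxidant genes and metallothioneins that fell numbered 2 without bleomycin male 2 and 5 without bleomycin male 3.

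Of 21 prostaglandin and leukotriene genes, 3 rose and 5 fell, against 15.7% and 13.3% of all tested genes. Hpgd was at 49.3, 34.9, 23.3, 22.1 and 21.1 FPKM in sham males 1 to 5 and at 6.49, 10.5, 5.26, 9.41 and 7.796 FPKM in bleomycin males 1 to 5. Hpgd, which inactivates prostaglandins, fell in all 5 (log2 fold change −1.96 ± 0.249, adjusted p = 0.000550). The lipoxygenase genes Alox15 (log2 fold change −2.67 ± 0.548, adjusted p = 0.005205) and Alox5 (log2 fold change −0.66 ± 0.158, adjusted p = 0.0109) fell. Pla2g2a was at 15.3, 4.59, 16.7, 11.7 and 9.799 FPKM in sham males 1 to 5 and at 73.3, 352, 115, 7.85 and 64.4 FPKM in bleomycin males 1 to 5. Pla2g2a, a secreted phospholipase, spanned 7.85 to 352 FPKM among bleomycin males, and male 4 lay within the sham range (log2 fold change 3.32 ± 0.765, adjusted p = 0.008998). The cyclooxygenase genes Ptgs1 and Ptgs2, at 0.29 ± 0.197 and 0.53 ± 0.431, did not pass. In cholesterol synthesis and uptake 1 of 25 fell, the exporter Abcg1, and none rose. Glycolytic and hypoxia genes rose in 7 of 26 and fell in 1, Epas1. The rises included small steps in Tpi1 (log2 fold change 0.62 ± 0.126, adjusted p = 0.00483) and Pgam1 (log2 fold change 0.59 ± 0.149, adjusted p = 0.0135). Without bleomycin male 3, Alox15 stood at a log2 fold change of −3.27. Without bleomycin male 2, Pla2g2a stood at a log2 fold change of 2.48. Pla2g2a did not pass in limma-voom (adjusted p = 0.0657) or in edgeR with the replicate number as a block (adjusted p = 0.0608). Cholesterol synthesis and uptake genes that fell numbered 1 without bleomycin male 1 and 11 without bleomycin male 4. Hypoxia and glycolysis genes that rose numbered 3 without bleomycin male 1 and 5 without bleomycin male 3.

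Most ribosomal protein genes rose, mostly by less than 2-fold: 50 of 63 rose and none fell, with a median of 0.57, and 3 reached 2-fold. Rps29 was at 81.96, 91.3, 77.2, 72.4 and 72.5 FPKM in sham males 1 to 5 and at 144, 169.6, 179, 119 and 134 FPKM in bleomycin males 1 to 5. Bleomycin male 3 was the highest and male 4 the lowest of the bleomycin males (log2 fold change 0.89 ± 0.132, adjusted p = 0.001096). Ribosomal proteins took 1.97% ± 0.0782 of counts in sham and 2.98% ± 0.564 in bleomycin males (SD, n = 5; exact permutation test, 2-sided p = 0.00794, adjusted 0.0278). These genes have many processed pseudogenes, with which reads could be shared. Nuclear respiratory chain genes rose in 19 of 69, none fell (median 0.34), and the largest step among those that passed was in Cox7c (log2 fold change 0.87 ± 0.117, adjusted p = 0.000677). Of 34 proteasome genes none passed in edgeR, while 6 had an unadjusted p under 0.05, and DESeq2 called 0 and limma-voom 0. Lysosome genes rose in 10 of 28 and fell in 1. The rises included the proteases Ctss (log2 fold change 1.36 ± 0.219, adjusted p = 0.00153) and Ctsz (log2 fold change 0.97 ± 0.163, adjusted p = 0.00202). Cytosolic ribosomal protein genes that rose numbered 25 without sham male 1 and 53 without bleomycin male 3.

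Of 19 clock genes, 3 rose and 4 fell, shares not far from the 15.7% and 13.3% of all tested genes. Npas2 was at 10.4, 11.8, 12.3, 9.36 and 9.31 FPKM in sham males 1 to 5 and at 5.22, 5.39, 2.25, 6.404 and 3.54 FPKM in bleomycin males 1 to 5. Npas2, Clock and Bmal1, which form the activating arm, fell by 1.26 ± 0.235, 0.69 ± 0.158 and 0.73 ± 0.197 on the log2 scale. Per2 (1.28 ± 0.388) and Bhlhe40 (log2 fold change 1.12 ± 0.253, adjusted p = 0.00836), of the repressing arm, rose, and the repressor Nr1d1 fell (−0.95 ± 0.316). The labels do not give the hour of collection, and its part in these values was not tested. Bmal1 did not pass without sham male 3 (adjusted p 0.0538). Per2 did not pass without bleomycin male 2 or 5 or sham male 1, 2, 3 or 4 (adjusted p 0.05401 to 0.0668). Nr1d1 did not pass without bleomycin male 1, 2, 3 or 4 or sham male 3, 4 or 5 (adjusted p 0.0549 to 0.105). Circadian clock genes that rose numbered 1 without bleomycin male 2 and 5 without bleomycin male 4. Circadian clock genes that fell numbered 2 without sham male 3 and 5 without bleomycin male 5.

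The bleomycin males varied more than the sham males. The median SD of log2 CPM was 0.366 across bleomycin and 0.203 across sham males, and it was larger in bleomycin males for 81.8% of genes. The animals did not rank alike in all gene groups. Male 4 was the nearest to sham for type 1 markers (list median −0.30), capillary genes (−0.33) and dendritic cell genes (0.22), and the farthest for mitosis genes (2.39). Male 2 was the farthest for type 1 markers (−2.63) and the nearest for mitosis genes (1.30). Male 3 was the farthest for recruited macrophage genes (2.48), ribosomal protein genes (1.14) and transitional epithelial genes (1.24). Male 5 carried fat transcripts: Adipoq, the fat cell hormone adiponectin, was at 75.0 FPKM there and at most 5.45 in any other library, and Car3 at 329.

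**Figure D5:**
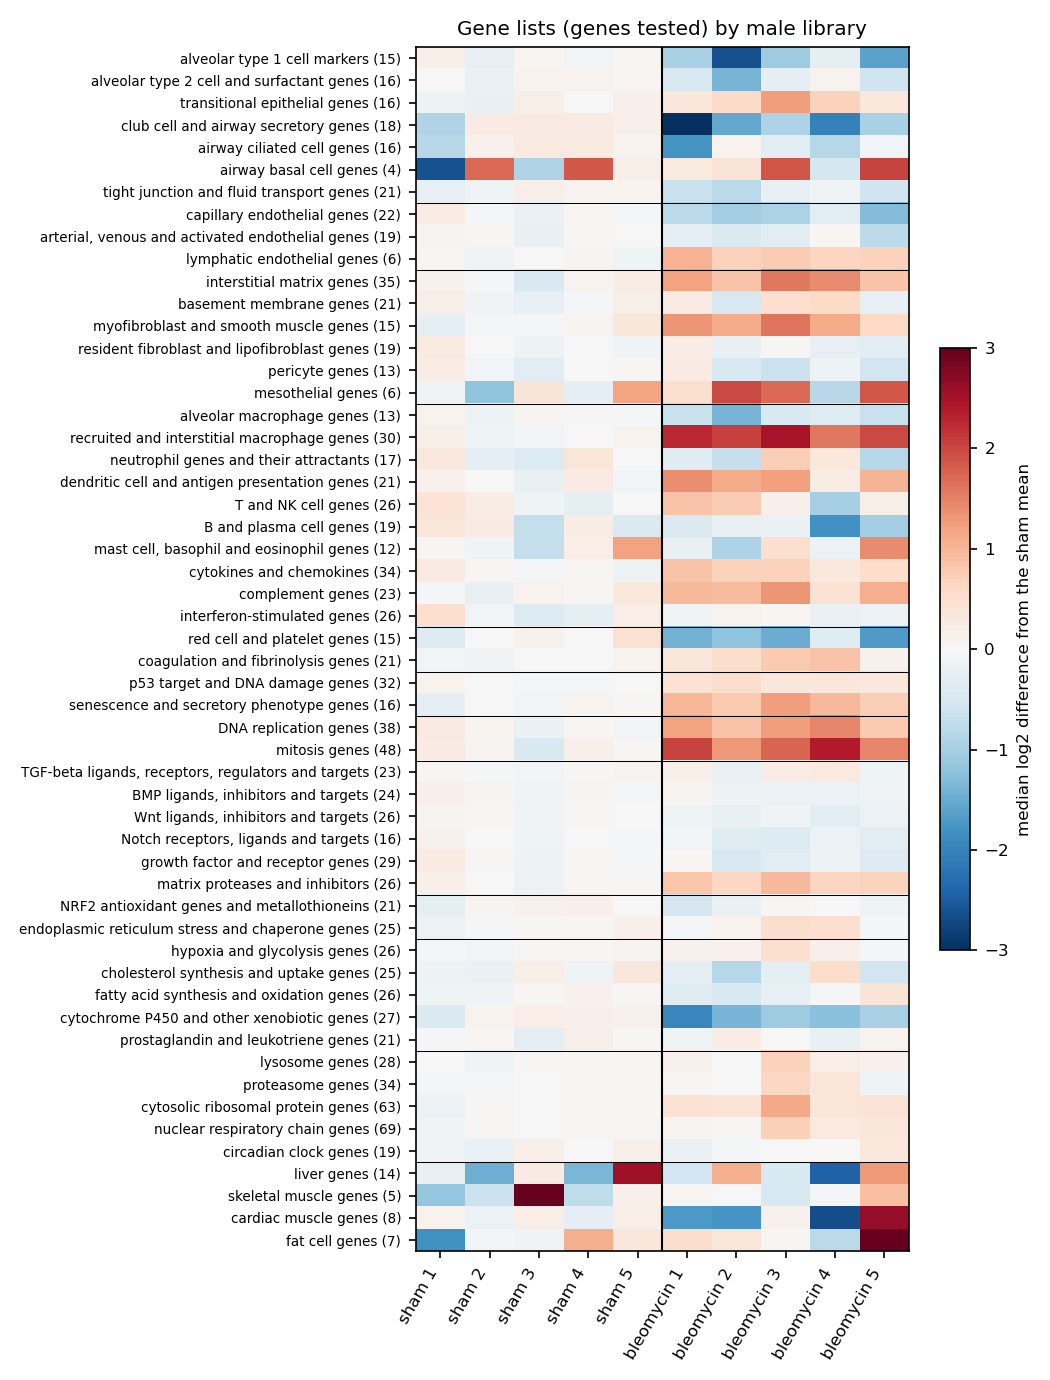
Median over the tested genes of each list of the log2 difference from the sham mean, for the 54 gene lists (rows, grouped by compartment) in the 10 male libraries (columns); red is above and blue below the sham mean, and the scale is held at ±3. Cell cycle and recruited macrophage lists are red in all 5 bleomycin males, type 1, capillary and club lists are blue, and the other-organ lists at the foot are high in single libraries such as fat in bleomycin male 5.

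Transcripts of other organs were seen in single libraries of both groups, and their part in any result was not tested. Alb, the albumin gene, was at 36.2, 11.5, 52.3, 15.3 and 333 FPKM in sham males 1 to 5 and at 28.6, 63.2, 10.2, 2.60 and 97.0 FPKM in bleomycin males 1 to 5. In a comparison without the 4 libraries of at least 50 FPKM of Alb, 3 animals a group remained, and 668 genes were called higher, 338 lower and 1351 at an adjusted p under 0.05. Acta1, the actin of skeletal muscle, reached 172 FPKM in sham male 3 and at most 20.7 elsewhere. Of the liver, skeletal muscle and heart lists no gene passed in edgeR, with 1, 0 and 0 at an unadjusted p under 0.05 and 1, 0 and 0 called by DESeq2, and of 7 fat genes 2 rose, Cfd (log2 fold change 3.16 ± 0.5998, adjusted p = 0.00361) and Lipe (log2 fold change 0.49 ± 0.167, adjusted p = 0.0487). Lipe did not pass without bleomycin male 1, 2 or 5 or any single sham male (adjusted p 0.0604 to 0.09996). Without bleomycin male 5, Cfd stood at a log2 fold change of 2.53.

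Not everything moved, and the replicates put bounds on it. The 95% interval of the log2 fold change lay within 0.5 of 0 for 3095 genes (20.3%) and within 1 for 9290 (60.8%). The most abundant of the first set included the elongation factor Eef1a1 (−0.11 ± 0.176, interval −0.50 to 0.28), the small GTPase Rhoa (−0.23 ± 0.123, −0.50 to 0.040) and the histone gene H3f3a (0.13 ± 0.162, −0.23 to 0.49). Blmh was at 18.5, 18.6, 16.3, 15.5 and 17.4 FPKM in sham males 1 to 5 and at 21.5, 16.3, 25.8, 24.02 and 18.8 FPKM in bleomycin males 1 to 5. Blmh encodes bleomycin hydrolase, and its groups overlapped (log2 fold change 0.28 ± 0.158, adjusted p = 0.195; interval −0.062 to 0.63). Among 147 small nucleolar RNA genes 36 rose and none fell. Their share of counts was 0.00322% ± 0.00117 in sham and 0.00673% ± 0.00224 in bleomycin males (SD, n = 5; exact permutation test, 2-sided p = 0.0238, adjusted 0.0417). These RNAs mostly lack a poly-A tail, the libraries were made by poly-A selection, and reads could also come from the introns that hold them.

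Positions are given as the deposited table lists them, for which the labels name the Rnor 6.0 build beside an Ensembl release that came after that build, so the build is uncertain. There Scgb1a1 is at chromosome 1:205977060-205980610, Cyp2b1 is at chromosome 1:81518408-81542052, Bmpr2 is at chromosome 9:61190566-61301809, Epas1 is at chromosome 6:7790647-7871228, Folr2 is at chromosome 1:156200060-156205724 and Grem1 is at chromosome 3:100512313-100524082.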

How the data were processed

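Lung RNA of 20 animals was taken with TRIzol, enriched by poly-A capture, made into stranded TruSeq libraries and read as 150-base pairs on a NovaSeq, per the labels' protocols. The authors trimmed reads with Cutadapt 1.10, aligned them with HISAT2 2.0 and computed FPKM with StringTie 1.3.4, per the labels' protocols. The deposited table holds a count and an FPKM value for each gene and library, and how the counts were made and whether they used strand are not given in the sources used here. Reads of overlapping or antisense genes may therefore not be told apart. The deposited FPKM values are scaled by transcript length and library size.

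The count columns of the 5 sham and 5 bleomycin males were tested, with no value from the other 10 libraries. Genes with an FPKM of at least 0.5 in at least 5 of the 10 libraries entered edgeR 4.0.16 (R 4.3.3), with TMM scaling, robust quasi-likelihood fit and 2-sided test, adjusted by Benjamini-Hochberg over 15275 genes. Calls needed an adjusted p under 0.05 together with a 2-fold change in either direction, which is 1 on the log2 scale. Shares of counts were compared by exact permutation tests over 5 against 5. Scripts were tested on simulated data. With 68.6 M to 85.3 M counts per library, and about 4 counts per read pair, animal-to-animal spread enters the p-values through the fit. The replicates are separate animals. Alternatives were DESeq2 1.42.0, limma 3.58.1 (voom, and log2 of FPKM plus 1 or 0.1), other scalings and filters, a replicate block and left-out libraries.

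Some results are not reported here. The comparison and the gene lists were chosen with earlier results of these data known. Genes were named by rule: the 10 largest rises and falls in log2 fold change without overlap and with a mean FPKM of at least 5 in 1 group, the 8 largest in FPKM, up to 4 of each list by smallest p, the 6 of highest and lowest spread, the 6 most abundant with a narrow interval, Blmh and markers of other organs, though not all are printed. Other named genes were chosen after their values were seen. Rat sequences were not used here.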

Additional observations from a re-analysis of the deposited data

Results flagged for a closer look

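In each group of 5 animals, the highest and the lowest value of every named gene and count class was set against the other 4. An animal is listed here when its gap to the nearest of the others, divided by the whole range of the group, was above 0.71. Chance alone lists about 1 in 20 groups where values are normally distributed and genes are not chosen by their spread. Here 38 of 456 groups met this. Some of the genes were named for their spread or for a high value in a library, so 1 in 20 is no baseline for these groups. Their part in any result was not tested. Sham male 1 was the highest of its group for Acvrl1 (139.7 FPKM), Tcf21 (72.7 FPKM), Ctla4 (0.643 FPKM) and Mzb1 (9.504 FPKM), and the lowest of its group for Scgb1a1 (18407 FPKM), Cyp2f4 (151 FPKM) and Bmpr1b (0.559 FPKM). Bleomycin male 3 was the highest of its group for Mgp (2048 FPKM), Spp1 (668 FPKM) and Krt8 (378 FPKM), and the lowest of its group for Clock (3.17 FPKM). Sham male 4 was the highest of its group for Spp1 (67.3 FPKM), Slc4a1 (2.78 FPKM) and Mybl2 (1.26 FPKM), and the lowest of its group for Cd8a (4.92 FPKM). Bleomycin male 5 was the highest of its group for Scin (6.06 FPKM), Serpinb10 (5.56 FPKM), Fabp4 (123.1 FPKM), Adipoq (75.02 FPKM) and Car3 (329 FPKM). Sham male 5 was the highest of its group for Tnfrsf12a (16.01 FPKM), Chrd (1.16 FPKM), Id1 (227 FPKM), Cdkn2a (0.4203 FPKM), Ereg (1.14 FPKM), Ccn2 (144 FPKM) and Alb (333 FPKM). Bleomycin male 4 was the highest of its group for Epas1 (506 FPKM), Cxcl2 (1.802 FPKM), Il1a (4.16 FPKM) and Ereg (5.78 FPKM), and the lowest of its group for Cd8b (1.13 FPKM). Bleomycin male 2 was the highest of its group for Lamc3 (2.54 FPKM). Sham male 2 was the highest of its group for Ccl22 (1.16 FPKM), Cxcl11 (0.541 FPKM) and Hmox1 (39.7 FPKM). Bleomycin male 1 was the highest of its group for Fgfr4 (14.9 FPKM). Sham male 3 was the highest of its group for Acta1 (172 FPKM).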

How the results depend on the processing

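Over all genes, 1042 were called higher, 682 lower and 4428 had an adjusted p under 0.05, and under the 28 alternatives most counts stayed within 1.5 times of these. The exceptions were as follows. Genes called higher numbered 663 at an FPKM minimum of 2, 262 with edgeR's test against a 2-fold change (glmTreat) and 586 with limma on log2(FPKM + 1). Genes called lower numbered 82 with glmTreat and 403 with limma on log2(FPKM + 1). Without the 4 libraries with at least 50 FPKM of Alb (sham males 3 and 5, bleomycin males 2 and 5) there were 668 higher, 338 lower, 1351 at an adjusted p under 0.05 and 1089 genes with an interval within 0.5, against 3095 with all animals; this leaves 3 animals a group. With sham male 1 and bleomycin male 1 both left out, chosen after seeing the data, 2868 genes had an adjusted p under 0.05. With 1 library left out at a time, genes called higher numbered 905 to 1128, called lower 539 to 845, at an adjusted p under 0.05 3242 to 4927, and with an interval within 0.5 2446 to 4006. The difference in the share of counts of the 10 most abundant genes was −1.03 percentage points (exact permutation test, p = 0.175) with all animals and −1.52 to −0.723 with 1 left out. Without sham male 1 the exact permutation test gave p = 0.0397. The median over all genes was 0.107 with no filter on low values.

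The replicate numbers are known from the sample titles only, which do not say whether they pair the animals. Deviations of same-numbered animals from their group means correlated at 0.504, 0.113, −0.0921, 0.068 and 0.000825, and 2 of 5 numbers matched best with their own. These correlations cannot settle whether same-numbered animals were paired. With the number as a replicate block, 955 genes were called higher, 796 lower and 4178 had an adjusted p under 0.05.

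Of 184 named genes past the threshold, 97 stayed past it in every alternative that tested them, 87 lost it in at least 1 and 0 changed direction. The test against a 2-fold change is not counted here, and genes under the stricter FPKM minimum were not tested under it. The alternative without the Alb libraries lost 75 of them, and the one without both sham male 1 and bleomycin male 1 lost 41. In limma-voom 9 were lost, namely Cd8a, Ereg, Fabp4, Gbp5, Id3, Lipe, Nr1d1, Per2 and Pla2g2a. The replicate block lost 11, namely Acaca, Eln, Ereg, Fabp4, Id3, Lipe, Nr1d1, Pla2g2a, Plat, Sesn1 and Tgfb1. Of those that had not passed, Nqo1 passed in 11 alternatives, Axin2 in 3 and Tgfbr1 in 2, and Blmh, Gclc, Il1a and Msln in 1 each. Some genes that had not passed changed sign. Without the Alb libraries these were Sftpa1 (0.029), Sftpd (0.22), Il1b (−0.25), Ptgs2 (−0.38) and Eef1a1 (0.025), and without sham male 1 and bleomycin male 1 Id1 (−0.018) and Pdgfra (−0.037). With 1 library left out at a time, Sftpd ranged from −0.39 to 0.025, Krt8 from −0.12 to 0.32, Id1 from −0.080 to 0.25, Pdgfra from −0.043 to 0.098, Tcf21 from −0.054 to 0.17, Il1b from −0.16 to 0.46 and Hspa5 from −0.014 to 0.22. The cause was not tested. Where none of a list rose or fell, leaving out 1 library gave at most 1 gene in that direction, except 4 proteasome genes that rose without bleomycin male 5. Limits: the groups hold 5 animals each and bleomycin males spread more widely. The median SD of log2 CPM was 0.366 in them and 0.203 in sham males. Genes with few counts are limited by depth.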

Other observations

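Mast cell, basophil and eosinophil genes gave few calls, with 1 up and 2 down of 12. Cma1 was at 2.19, 1.12, 1.13, 2.89 and 3.63 FPKM in sham males 1 to 5 and at 11.4, 4.97, 20.03, 7.48 and 19.2 FPKM in bleomycin males 1 to 5. The mast cell chymase gene Cma1 rose (log2 fold change 2.49 ± 0.487, adjusted p = 0.00424), while the stem cell factor receptor Kit (log2 fold change −1.14 ± 0.287, adjusted p = 0.0132) and the transcription factor Gata2 (log2 fold change −0.73 ± 0.228, adjusted p = 0.0353) fell. Of 16 genes of senescence and its secretory phenotype, 9 rose and 2 fell. The cell cycle inhibitor Cdkn1a, a p53 target, rose (log2 fold change 1.25 ± 0.275, adjusted p = 0.00733), and so did the lamin gene Lmnb1 (log2 fold change 1.09 ± 0.196, adjusted p = 0.00283), which senescent cells are known to lose. The inhibitor Cdkn1c fell (log2 fold change −1.05 ± 0.294, adjusted p = 0.0215). Gata2 did not pass without bleomycin male 2 or 3 or sham male 1, 2, 4 or 5 (adjusted p 0.0619 to 0.0741). Cdkn1c did not pass without sham male 4 or 5 (adjusted p 0.0512 to 0.0525).

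Fatty acid synthesis and oxidation genes gave 2 up and 3 down of 26, against 15.7% up and 13.3% down of all tested genes. Those that fell are enzymes of synthesis, the desaturase Scd (log2 fold change −1.32 ± 0.394, adjusted p = 0.0281), the citrate lyase Acly (log2 fold change −0.71 ± 0.196, adjusted p = 0.0199) and the carboxylase Acaca (log2 fold change −0.47 ± 0.156, adjusted p = 0.0425). Fabp4 was at 2.31, 5.12, 2.43, 5.25 and 1.72 FPKM in sham males 1 to 5 and at 5.97, 11.7, 5.56, 3.598 and 123.1 FPKM in bleomycin males 1 to 5. The fatty acid binding protein gene Fabp4, expressed by fat cells, capillaries and macrophages, was among the genes that varied most between bleomycin males (log2 fold change 3.05 ± 0.962, adjusted p = 0.0355). Cd163 was at 0.38998, 0.228, 0.8895, 0.634 and 1.09 FPKM in sham males 1 to 5 and at 6.97, 14.1, 23.4, 4.29 and 13.3 FPKM in bleomycin males 1 to 5. Cd163, the hemoglobin scavenger receptor of macrophages, was among the largest rises (log2 fold change 4.22 ± 0.574, adjusted p = 0.000716). Scd did not pass without bleomycin male 1 or 3 or sham male 3 or 5 (adjusted p 0.0614 to 0.0692). Acaca did not pass without bleomycin male 1, 2 or 3 or any single sham male (adjusted p 0.0546 to 0.112). Fabp4 did not pass without bleomycin male 5 or any single sham male (adjusted p 0.0576 to 0.105). Without bleomycin male 5, Fabp4 stood at a log2 fold change of 0.94. Fabp4 also did not pass in limma-voom (adjusted p = 0.176) or in edgeR with the replicate number as a block (adjusted p = 0.199). Fatty acid synthesis and oxidation genes that rose numbered 0 without sham male 1 and 2 without bleomycin male 1. Fatty acid synthesis and oxidation genes that fell numbered 1 without bleomycin male 1 and 8 without bleomycin male 5.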
